A study of Mus musculus with 34 samples.

Results

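The formative and primed epiblast transcription factors examined here are Otx2, Pou3f1, Zic2, Zic5, Sox3, Sox4, Sall2, Foxd3, Tcf15 and Grhl2. They were taken by symbol from the deposited expression table, where all 10 were found among 23366 rows. The RNA-seq compared mouse embryonic stem cells (mESCs) of the J1 line after withdrawal of leukemia inhibitory factor from serum medium (serum/–LIF, 2 libraries) with the same cells given purified Royalactin, the major royal jelly protein of the honey bee, at 0.5 mg/ml in medium that also lacked LIF (serum/–LIF + Royalactin, 2 libraries). All 4 libraries came from unmodified J1 cells on gelatin, so the comparison rests on a single cell line, and neither condition contained LIF. The labels give passage 40 for these cells. A different, lower passage is named in the text of the study. The study asked whether Royalactin keeps mESCs undifferentiated, and the epiblast factors address a specific side of that question, namely whether cells without LIF differ from Royalactin cells in the genes of the next developmental stage.

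Naive pluripotent cells of the inner cell mass pass through a formative state and then a primed state before gastrulation. On this path Otx2 and Pou3f1 (Oct6) rise and redirect Oct4 from naive to epiblast enhancers, Zic and Sox factors occupy overlapping enhancers and later act in neural development, Foxd3 closes naive enhancers, and Grhl2 opens enhancers of epithelial genes. Tcf15 is a basic helix-loop-helix factor of cells that are leaving the naive state and are not yet committed, and Sall2 is a zinc finger factor related to the pluripotency factor Sall4.

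None of the 10 factors was called as different between serum/–LIF + Royalactin and serum/–LIF after adjustment over all genes (limma, Benjamini-Hochberg adjusted p under 0.05, 0 of 10), and for comparison 0.493% of the 12993 genes tested were called. A share of 0 among 10 genes is near that background. At an unadjusted limma p under 0.05, 2 of the 10 stood out, against 9.34% of all genes tested. These were Pou3f1, with the lower level under Royalactin (4.58% of all genes in that direction), and Tcf15, with the higher level (4.76%). Log2 fold changes ran from -1.40 for Pou3f1 to 1.05 for Tcf15. Both Royalactin libraries lay below both serum/–LIF libraries for Pou3f1, Sox3, Sall2 and Foxd3, which is 4 of 10 against 18.9% of all genes tested. They lay above both for Tcf15 alone, 1 of 10 against 19.7%, and the libraries of the conditions overlapped for the other 5 factors. The 5 of 10 that did not overlap in either direction stand beside 38.6% of all genes. The median log2 fold change was -0.28 over the 10 factors and -0.0076 over all genes tested. Leaving out single libraries moved the median of the factors to between -0.53 and -0.20. The log2 fold change was below 0 for 8 of 10 factors, and one of these 8, Sox4, moved to the other side of 0 under some scalings. In bulk RNA, fewer cells that express a factor and less RNA of that factor per cell cannot be told apart. Values are normalized counts, that is reads per gene divided by a size factor per library, and fold changes are on the log2(normalized count + 1) scale.

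**Figure D1:**
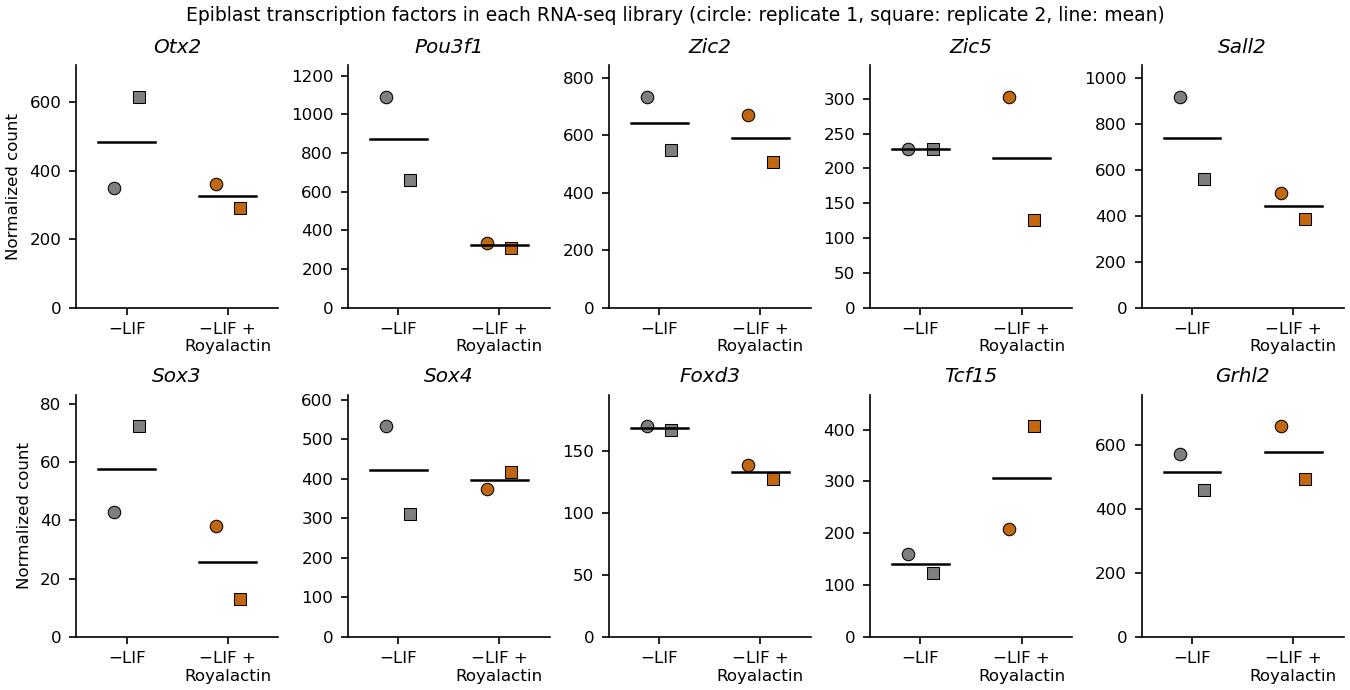
Normalized counts (linear axes from 0) of the 10 factors in the 4 libraries, with grey points for serum/–LIF, orange points for serum/–LIF + Royalactin and a line at each mean of 2 libraries. Both orange points lie under both grey points for Pou3f1, Sall2, Sox3 and Foxd3 and over them for Tcf15.

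**Figure D2:**
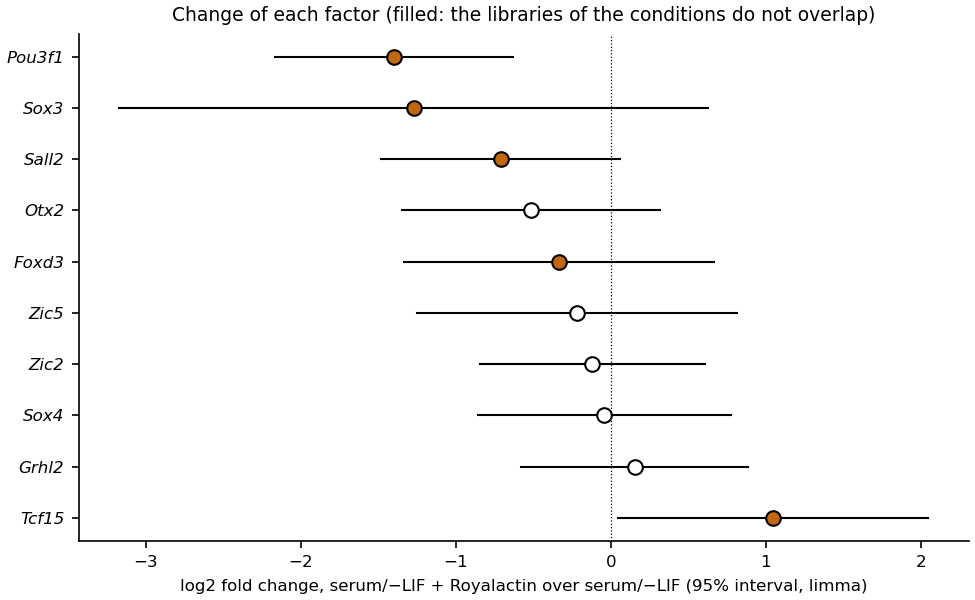
log2 fold change of each factor with its 95% interval from limma, on an axis that is positive where Royalactin libraries were higher. The interval leaves out 0 only for Pou3f1, from -2.17 to -0.63, and for Tcf15, from 0.0467 to 2.05, before any adjustment for the number of genes.

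Among the homeodomain factors, Pou3f1 had the largest difference of the 10. Pou3f1, a POU factor of the primed epiblast and of neural and glial lineages (chromosome 4, 124334889 to 124337899 of mm9, a single exon), was measured at 1089.9 and 658 normalized counts in the serum/–LIF replicates 1 and 2 and at 334 and 308 in the Royalactin replicates 1 and 2. Every Royalactin library was therefore below every serum/–LIF library, and the Royalactin pair lay close together. The means were 874 ± 305 and 321 ± 18.1 (SD, n = 2), a log2 fold change of -1.40 with a standard error of 0.36 (limma, Benjamini-Hochberg adjusted p = 0.142). After values had been corrected for exon length and GC content, an alternative added once the data had been seen, its adjusted p was 0.0168 (limma, Benjamini-Hochberg) in a fit that called 1.90% of all genes. It also passed with the replicate number as a block, although the labels name nothing that same-numbered libraries share, where 3.01% of all genes were called and Pou3f1 was the only factor among them. Over the 15 alternatives its adjusted p from limma ranged from 2.68e-05 to 0.9998. The lowest adjusted p came from the replicate block combined with the GC and length correction, a fit that called 786 of the 12993 genes tested. The log2 fold change itself stayed below 0 under every alternative tried, and it lay between -1.76 and -1.03 when single libraries were left out.

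Otx2, the homeodomain factor that leads exit from the naive state (chromosome 14, 49277354 to 49287319, on the minus strand with up to 5 exons), did not separate the conditions. It was at 350.4 and 616 normalized counts in serum/–LIF and at 361 and 292 with Royalactin. Only serum/–LIF replicate 2 stood above the other libraries, and serum/–LIF replicate 1 lay between the Royalactin libraries. Otx2 had a log2 fold change of -0.52, with a 95% interval from -1.35 to 0.32 (limma, Benjamini-Hochberg adjusted p = 0.736), and without serum/–LIF replicate 2 it was -0.11. The 262 and 595 reads behind the serum/–LIF values have 95% Poisson intervals of 231 to 296 and 548 to 645, which cover counting error only. Reads are not scaled for library size. Both the intervals and the scaled values, 350.4 and 616, lay apart, so the serum/–LIF replicates differed by more than counting error.

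The table adds up all transcripts of a gene, and RefSeq lists 4 start sites for Otx2. Of the 10 factors, 5 have entries among the RefSeq promoters used here (GRCm38.p6, 250 bases before to 50 after each start), namely Otx2, Zic5, Sox4, Sall2 and Foxd3, with 9 promoters in all, and Pou3f1, Zic2, Sox3, Tcf15 and Grhl2 have none. Each of the 9 sequences was placed in mm9 by an exact match. The third Otx2 promoter (chr14:49284735-49285034 of mm9, minus strand) is shown because it alone of the 9 holds the TAATCC letters that bicoid-type homeodomain proteins such as Otx2 bind, and the TTCNNNGAA letters of STAT factors. Both are in capitals and were searched on both strands.
Otx2 promoter: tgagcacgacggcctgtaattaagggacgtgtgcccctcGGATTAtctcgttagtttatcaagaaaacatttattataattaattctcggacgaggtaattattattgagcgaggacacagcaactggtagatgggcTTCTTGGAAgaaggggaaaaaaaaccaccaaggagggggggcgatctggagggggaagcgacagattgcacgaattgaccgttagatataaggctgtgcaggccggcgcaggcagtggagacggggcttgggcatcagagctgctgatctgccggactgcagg
Over all 32851 promoters of the same length, 7.06% held TAATCC and 8.30% held TTCNNNGAA. A match describes the letters and shows no binding.

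The zinc finger factors divided into a Zic pair with overlapping conditions and Sall2 with separate ones. Zic2, an epiblast and neural plate factor (chromosome 14, 122874604 to 122879074), was at 733 and 549.6 normalized counts in serum/–LIF and at 671 and 507 with Royalactin. In each condition the first replicate was the higher, and the ranges overlapped over most of their width. Its log2 fold change was -0.12, with a 95% interval from -0.85 to 0.60 (limma, Benjamini-Hochberg adjusted p = 0.944), so a change of 2-fold in either direction lies outside the interval.

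Zic5, which lies on the opposite strand of the same locus with 9704 bases between the gene bodies (122856017 to 122864899), was at 227 and 228 normalized counts in serum/–LIF and at 303 and 126 with Royalactin. The serum/–LIF replicates were nearly equal, and the Royalactin replicates fell on either side of them, 2.40-fold apart. Its log2 fold change was -0.22 (95% interval -1.25 to 0.81, limma, Benjamini-Hochberg adjusted p = 0.928). The counts of Zic5 are uncertain, because 56.4% of the 75-base tiles of its exons also matched chromosome 11 between 56272859 and 56276078 with up to 2 mismatches. Among the other 9 factors only Foxd3 had any such tile, 1 of 92.

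Sall2 (chromosome 14, 52930847 to 52948437, minus strand) was at 919 and 561 normalized counts in serum/–LIF and at 499.9 and 385 with Royalactin. Both Royalactin libraries were below both serum/–LIF libraries, although the gap between the nearest libraries was smaller than the gap between the serum/–LIF replicates. The means were 739.9 ± 253 and 442 ± 81.4 (SD, n = 2), and the log2 fold change was -0.71 (95% interval -1.48 to 0.0614, limma, Benjamini-Hochberg adjusted p = 0.587).
The 2 RefSeq starts of Sall2 differ in base composition, and they are shown because the gene total cannot say which of them carried the lower level. The distal promoter (chr14:52948296-52948595 of mm9) has 30.3% G and C, and the proximal promoter (chr14:52935949-52936248) has 65.0%. Capitals mark TATAAA, the letters of a TATA box, which 13.6% of all promoters held.
Sall2 distal promoter: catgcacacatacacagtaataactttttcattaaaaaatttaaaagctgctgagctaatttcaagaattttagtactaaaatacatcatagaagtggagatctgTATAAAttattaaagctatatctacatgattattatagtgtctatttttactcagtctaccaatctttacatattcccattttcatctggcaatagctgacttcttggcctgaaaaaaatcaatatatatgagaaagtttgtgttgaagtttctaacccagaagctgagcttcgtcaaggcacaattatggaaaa
Sall2 proximal promoter: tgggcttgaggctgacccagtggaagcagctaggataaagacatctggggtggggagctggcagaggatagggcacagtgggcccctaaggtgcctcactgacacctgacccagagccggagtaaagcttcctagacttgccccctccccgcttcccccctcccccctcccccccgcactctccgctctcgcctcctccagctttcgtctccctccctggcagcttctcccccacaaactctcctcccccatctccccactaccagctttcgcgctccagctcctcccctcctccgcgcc
Of this pair the distal promoter alone holds TATAAA, and among the 9 promoters 2 hold it, the other being the most upstream of Otx2. No ATGCAAAT octamer and no ACAAAG SOX letters were in any of the 9 promoters, where 1.74% and 18.7% of all promoters held them.

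Sox3 was the least abundant factor and Sox4 a factor without a visible difference. Sox3, the SoxB1 partner of Sox2 in epiblast and neural progenitors (chromosome X, 58144545 to 58146605, a single exon), was at 42.8 and 72.5 normalized counts in serum/–LIF and at 38.2 and 13.1 with Royalactin. Both Royalactin libraries were below both serum/–LIF libraries, but Royalactin replicate 1 and serum/–LIF replicate 1 were nearly level. These values stand for 32 and 70 reads in serum/–LIF and 38 and 19 reads with Royalactin. The Poisson interval of the 38 reads, 26.9 to 52.2, contains the 32, though reads are not scaled for library size. The log2 fold change of -1.27 had the widest interval of the 10, from -3.17 to 0.63 (limma, Benjamini-Hochberg adjusted p = 0.717), so neither a fall to a level several times lower nor a small rise lay outside it.

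Sox4, a SoxC factor of progenitor cells in many tissues (chromosome 13, 29040788 to 29045582, minus strand), was at 534 and 310.5 normalized counts in serum/–LIF and at 374 and 418 with Royalactin. Both Royalactin libraries lay inside the range of the serum/–LIF replicates. On the log2 scale the change was -0.0419 (95% interval -0.86 to 0.77, limma, Benjamini-Hochberg adjusted p = 0.983), and it was 0.0205 with upper-quartile scaling and 0.0133 with scaling to the total without the ribosomal precursor Rn45s. Exons of an annotated lincRNA on the other strand, Gm17419, cover 54.6% of the Sox4 exons, and whether the reads were counted by strand is not given in the sources used here.

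Foxd3, a forkhead factor of epiblast and neural crest (chromosome 4, 99322990 to 99325362, a single exon), was the steadiest of the 10. It was at 169.8 and 167 normalized counts in serum/–LIF and at 139 and 127 with Royalactin. The replicates of each condition agreed to within 1.09-fold, and both Royalactin libraries were lower. The difference was small, with a log2 fold change of -0.34 (95% interval -1.34 to 0.66, limma, Benjamini-Hochberg adjusted p = 0.872), and with each library left out it stayed between -0.40 and -0.28. The Foxd3 promoter (chr4:99322740-99323039 of mm9, plus strand) is shown as the promoter of a factor whose libraries did not overlap, and its capitals mark CACGTG, a palindromic E-box that 7.15% of all promoters held and that was in no other promoter of the 9.
Foxd3 promoter: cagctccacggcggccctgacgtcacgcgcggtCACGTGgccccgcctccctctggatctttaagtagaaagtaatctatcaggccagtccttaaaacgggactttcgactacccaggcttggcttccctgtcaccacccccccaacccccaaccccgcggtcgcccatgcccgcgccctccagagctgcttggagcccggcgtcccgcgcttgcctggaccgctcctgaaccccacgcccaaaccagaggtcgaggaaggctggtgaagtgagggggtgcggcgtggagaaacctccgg

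Tcf15 was the only factor for which both Royalactin libraries were higher. It lies on chromosome 2 (151969297 to 151974833) and was at 159 and 123 normalized counts in serum/–LIF and at 207 and 407 with Royalactin. Royalactin replicate 2 was far above the other libraries, and Royalactin replicate 1 exceeded serum/–LIF replicate 1 by less than the distance between the Royalactin replicates. In reads, which are not scaled for library size, 119 and 119 stood against 206 and 591. The means were 141 ± 25.4 and 307 ± 141 (SD, n = 2), and the log2 fold change of 1.05 (95% interval 0.0467 to 2.05) did not pass the adjustment (limma, Benjamini-Hochberg adjusted p = 0.510). Without Royalactin replicate 2 it was 0.56, so 1 library carried much of the value.

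Grhl2, the grainyhead-like factor of epithelia (chromosome 15, 37162791 to 37293324, up to 16 exons), was at 574 and 461 normalized counts in serum/–LIF and at 659.8 and 495 with Royalactin. The ranges overlapped. Its log2 fold change of 0.15 had an interval across 0 (95% interval -0.58 to 0.89, limma, Benjamini-Hochberg adjusted p = 0.929).

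The spread between replicates set what could be seen. In serum/–LIF, 5 of the 10 factors differed by more than 1.5-fold between replicates, and with Royalactin 3 did. Standard errors of the log2 fold change ran from 0.34 for Zic2 to 0.88 for Sox3. They also draw on genes of similar level and are not each factor's own replicate spread. Foxd3, the steadiest factor, had 0.46, and Otx2 had 0.39. Over all genes tested, replicates differed by a median of 0.57 on the log2 scale in serum/–LIF and of 0.39 with Royalactin, and the condition means by 0.40. Between 14737796 and 17597818 reads were counted per library, of which Rn45s took 9.08% to 46.6%, and the factors had 19 to 815 reads in a library. An exact permutation test of 2 against 2 libraries cannot give a two-sided p below 0.333, so single values were not tested that way.

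Per kilobase of exon, Pou3f1 was the highest of the 10 factors in serum/–LIF and Tcf15 the highest with Royalactin. In serum/–LIF the order of the mean normalized count per kilobase was Pou3f1 with 290.3 ± 101 (SD, n = 2), Zic2 with 153, Tcf15 with 144, Otx2 with 142, Sall2 with 136, Grhl2 with 93.9, Sox4 with 88.0, Foxd3 with 70.9, Zic5 with 46.5 and Sox3 with 27.96 ± 10.2. Pou3f1 stood above Zic2 in both libraries, Foxd3 above Zic5 and Zic5 above Sox3, and the other neighbours in this order overlapped. With Royalactin the order began with Tcf15 at 313 ± 144 and Zic2 at 141 ± 27.6, and Pou3f1 followed at 107 ± 6.00. There Tcf15 lay above Zic2, Zic2 above Pou3f1, Sall2 above Foxd3 and Zic5 above Sox3, with the other neighbours overlapping. Pou3f1 thus moved from above 81.7% of the tested genes with a gene model to above 60.9% of them, and Tcf15 from above 67.7% to above 83.1%. The exon length of Tcf15, 0.98 kilobases, is the shortest of the 10, and these levels assume that the annotated exons are those counted. The place of Zic5 in both orders is uncertain, since 56.4% of its tiles also matched another place.

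**Figure D3:**
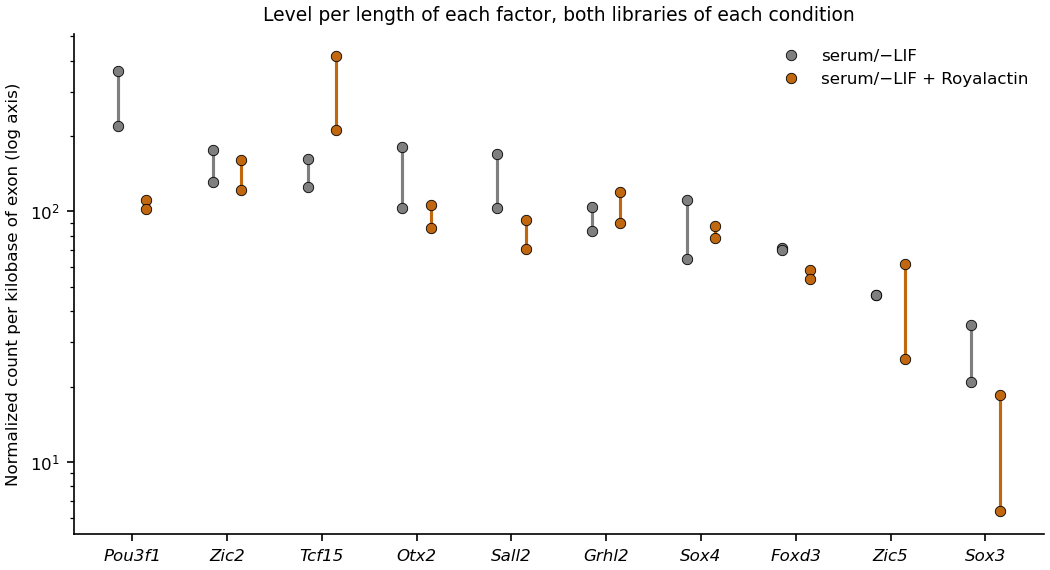
Normalized count per kilobase of exon (log axis) of each factor, ordered by the serum/–LIF mean, with both libraries of each condition joined by a line. Pou3f1 at 290.3 leads in serum/–LIF, Tcf15 at 313 leads with Royalactin, and Sox3 is lowest in both.

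Set against a paralog or partner in the same library, 5 factors gave ratios that did not overlap between the conditions, and such ratios do not depend on the size factors. They carry the partner's difference as well as the factor's own, and the partners Sox2, Nanog and Cdh1 did not overlap between the conditions either. How often the ratios of other gene pairs separate was not computed. Of single genes tested, 38.6% did not overlap. Sox3 amounted to 3.02% and 5.57% of the normalized count of Sox2, the core SoxB1 factor of pluripotency, in serum/–LIF and to 0.872% and 0.376% with Royalactin. The geometric means of this ratio differed 7.17-fold, with the Sox2 side rising from 1415 and 1300.0 to 4381 and 3476 (log2 fold change 1.52, limma, Benjamini-Hochberg adjusted p = 0.0368). Pou3f1 amounted to 21.8% and 12.2% of Pou5f1, the gene for Oct4, in serum/–LIF and to 6.497% and 4.14% with Royalactin. Oct4 itself overlapped between conditions, so here the Pou3f1 side carried most of the difference. Sall2 relative to Sall4 was 39.1% and 53.1% in serum/–LIF and 16.7% and 19.3% with Royalactin, with log2 fold changes of -0.71 for Sall2 and 0.63 for Sall4, whose own libraries overlapped (limma, Benjamini-Hochberg adjusted p = 0.660 for Sall4). Otx2 relative to Nanog was 40.8% and 86.0% in serum/–LIF and 24.6% and 16.8% with Royalactin, where Otx2 alone had not separated the conditions. Nanog, the homeodomain factor of naive cells, was higher in both Royalactin libraries with a log2 fold change of 1.02 (limma, Benjamini-Hochberg adjusted p = 0.219), against -0.52 for Otx2. Grhl2 relative to Cdh1 (E-cadherin), a gene it controls in epithelia, ran the other way, with 10.8% and 13.6% in serum/–LIF and 20.3% and 21.3% with Royalactin. Cdh1 was lower in both Royalactin libraries with a log2 fold change of -0.63 (limma, Benjamini-Hochberg adjusted p = 0.604), against 0.15 for Grhl2. The ratio of Zic2 to Zic5, from 2.22 to 4.03 in the 4 libraries, overlapped, and its level shares the uncertainty of the Zic5 counts. The ratios were not tested.

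**Figure D4:**
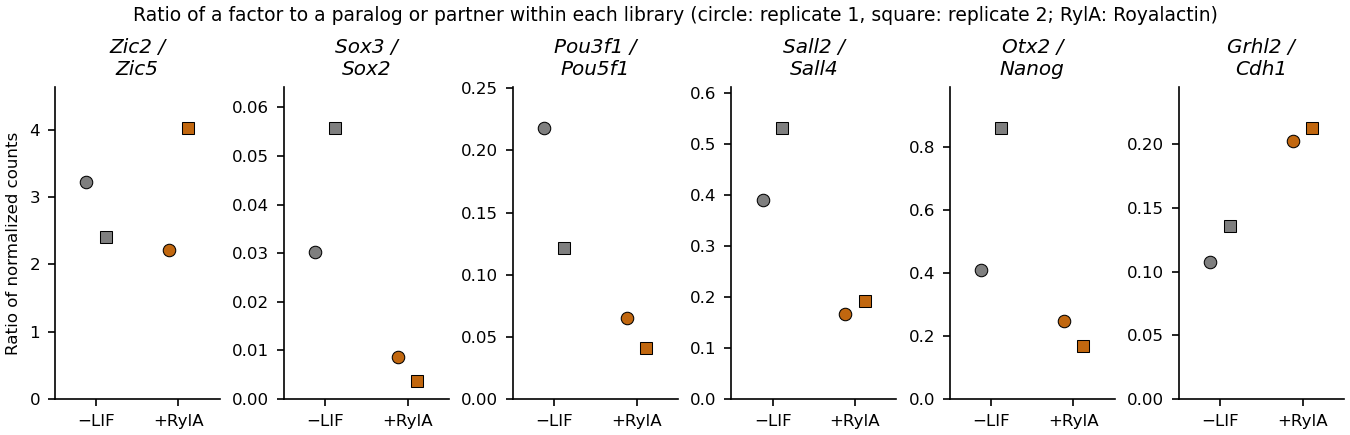
Ratio of the normalized counts of 2 genes within each library (linear axes from 0), grey for serum/–LIF and orange for serum/–LIF + Royalactin (RylA). Both Royalactin libraries are below for Sox3 to Sox2, Pou3f1 to Pou5f1, Sall2 to Sall4 and Otx2 to Nanog, above for Grhl2 to Cdh1, and mixed with serum/–LIF for Zic2 to Zic5.

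Other genes of the formative and primed epiblast lay on both sides of 0. Of 19 such genes, all tested, 1 was called lower and 0 higher, against 0.162% and 0.331% of all genes. The called gene was Fgf5, the growth factor used to mark the primed epiblast, with 379.8 and 433 normalized counts in serum/–LIF and 67.4 and 90.9 with Royalactin (log2 fold change -2.36, limma, Benjamini-Hochberg adjusted p = 0.0356). The highest log2 fold change of the list was that of Lefty2, an inhibitor of Nodal signalling, with 1.07, which did not pass (limma, Benjamini-Hochberg adjusted p = 0.183). The median over the list was -0.12, 10 of 19 genes had a log2 fold change below 0, and both Royalactin libraries lay below in 9 and above in 6, where 18.9% and 19.7% of all genes tested did.

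Genes of the naive state differed in more members. Of 14 listed, 6 were called higher and 0 lower (limma, Benjamini-Hochberg), against 0.331% and 0.162% of all genes tested, with a median log2 fold change of 2.24, and several of them are genes the study itself picked, so this is not independent support for a direction. The 6 were Klf4, Esrrb, Nr5a2, Nr0b1, Tfcp2l1 and Zfp42, with log2 fold changes from 2.30 for Zfp42 to 3.88 for Klf4. Prdm14, a repressor of epiblast genes, had the highest value of the list, 4.04, on 10 and 1 reads in serum/–LIF and 63 and 178 with Royalactin (limma, Benjamini-Hochberg adjusted p = 0.220). Sp5, a target of Wnt signalling, had the lowest, -1.003 (limma, Benjamini-Hochberg adjusted p = 0.841). The summed normalized counts of the 10 epiblast factors came to 1.81 and 1.32 times those of the 14 naive genes in serum/–LIF and to 0.303 and 0.278 times with Royalactin. Most of that difference lay on the naive side, whose sum went from 2651 and 2847 to 11827 and 11075, whereas the sum of the factors went from 4798 and 3746 to 3587 and 3078.

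Relatives of the factors ranged from unread to abundant. Of 24 paralogs, 11 had a mean normalized count under 10, among them Otx1, Pou3f2, Pou3f3, Pou3f4, Zic1 and Zic4, and Otx2 and Pou3f1 stood far above these relatives. Pou5f1, with 4996 to 7453 normalized counts, was the most abundant. Among the 13 tested, Sox2 was called higher and none lower, against 0.331% and 0.162% of all genes. In the grainyhead-like family Grhl1 had the lowest log2 fold change of the list, -1.07 (limma, Benjamini-Hochberg adjusted p = 0.641), and Grhl3 the highest, 3.63, on 15 and 1 reads in serum/–LIF and 94 and 99 with Royalactin (limma, Benjamini-Hochberg adjusted p = 0.312). Of 12 epithelial genes that Grhl2 is known to control or accompany, 0 were called, 3 had an unadjusted limma p under 0.05 at a lower level (4.58% of all genes), and 9 had both Royalactin libraries below both serum/–LIF libraries, beside 18.9% of all genes. Their median log2 fold change was -0.86, from -1.70 for the tight junction gene Cldn7 to 0.0737 for Cldn4 (limma, Benjamini-Hochberg adjusted p = 0.152 and 0.972), while Grhl2 itself overlapped between conditions.

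**Figure D5:**
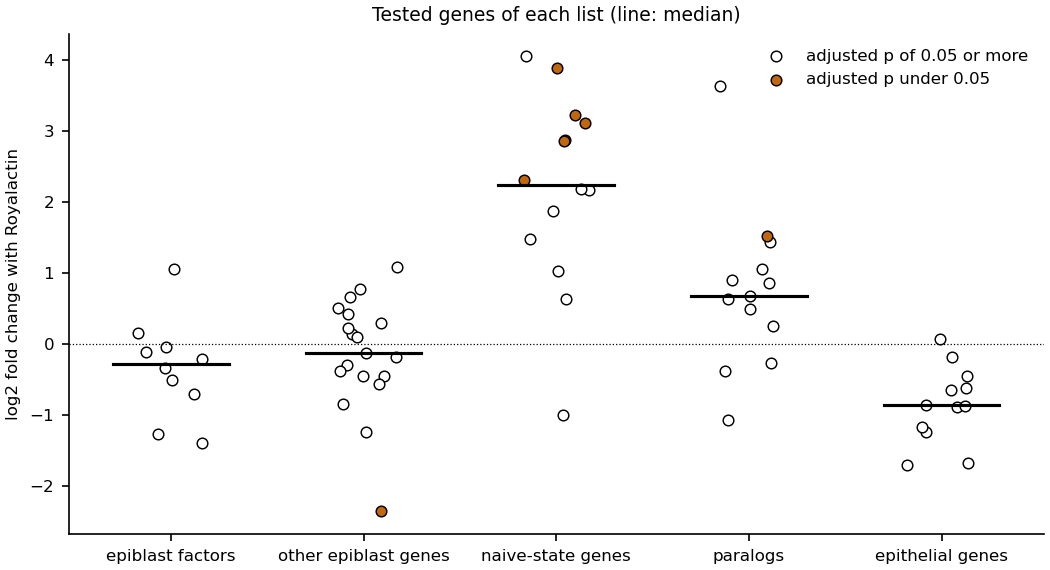
log2 fold change with Royalactin of every tested gene of 5 lists, with a line at each median, filled where the limma adjusted p was under 0.05. The 10 epiblast factors centre on -0.28 with none filled, the 19 other epiblast genes on -0.12 with Fgf5 filled, and the 14 naive genes on 2.24 with 6 filled.

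Several of the factors also serve other lineages, so markers of those lineages were read in the same libraries. The mESC markers were strong in all 4 libraries, with summed normalized counts of 7 markers from 16350.1 to 31903, and 2 of 7 were called higher with Royalactin, Sox2 and Zfp42, against 0.331% of all genes. For 10 neural markers the sum was 2530.2 and 1980.1 in serum/–LIF and 1472 and 1623 with Royalactin, but without Nes the other 9 summed to 1040.4 and 881 in serum/–LIF and to 1138 and 1298 with Royalactin. The intermediate filament gene Nes was called lower (0.162% of all genes were), with a log2 fold change of -1.95 (limma, Benjamini-Hochberg adjusted p = 0.0166), Neurog2 had no read in any library, and Pax6 had the highest log2 fold change, 0.98 (limma, Benjamini-Hochberg adjusted p = 0.593). Dcx, a gene of young neurons, had 5 and 43 reads in serum/–LIF and 0 in both Royalactin libraries, at least 10.1-fold lower against a floor of 3 reads per library. That bound rested on serum/–LIF replicate 2, since from replicate 1 alone it was 2.63-fold, and the fit did not call Dcx (limma, Benjamini-Hochberg adjusted p = 0.645). For 8 neural crest markers the sum ranged from 152 to 290.2, with Snai2 at 0 and Sox9 at 1 read in a single library. Only 3 of the 8 reached the mean of 10 needed for the test, and 0 of these were called, against 0.493% of all genes. The extremes of the 3 were Msx1 at -2.36 and Ngfr at 3.10 on the log2 scale (limma, Benjamini-Hochberg adjusted p = 0.389 and 0.576). Ngfr had 38 and 0 reads in the serum/–LIF replicates. For 7 primitive streak markers the sum ranged from 110.1 to 189, with Tbx6 without a read. Of these markers 3 were tested and 0 called, with T at -1.05 and Mixl1 at 0.50 (adjusted p = 0.837 and 0.934 by the same test). Of 6 primitive endoderm markers the sum was 187 to 332. Here 3 were tested and 0 called, with Dab2 at -0.77 and Gata4 at 1.55 (adjusted p = 0.636 and 0.680 by the same test). Fibroblast markers, 10 in number, summed to 269 and 284 in serum/–LIF and to 162 and 102 with Royalactin, and without Twist1, named after its values were seen, to 164 and 94.2 and to 97.6 and 69.5, which overlap. Of the 10 fibroblast markers 4 were tested and 0 called, and Pdgfrb and Postn were at 0 throughout. Among them Dcn, a matrix proteoglycan gene, had 28 and 30 reads in serum/–LIF and 0 with Royalactin, at least 13.5-fold lower against the same floor (limma, Benjamini-Hochberg adjusted p = 0.422), and Pdgfra had the highest log2 fold change, 2.38, on 39 and 0 reads in serum/–LIF and 42 and 47 with Royalactin (limma, Benjamini-Hochberg adjusted p = 0.709). Nes and Twist1 were thus lower in both Royalactin libraries, as were Pou3f1, Sall2, Sox3 and Foxd3, while the rest of the neural markers summed higher. The part of such markers in the differences of the factors was not tested. Fold bounds against the floor were made only for genes without a read in either Royalactin library. In reverse, Gsc went from 0 and 0 reads in serum/–LIF to 12 and 29 with Royalactin, and Sox10 from 0 and 0 to 15 and 6. Tfap2a and Sox17 rose from 3 and 0 each, to 11 and 14 and to 11 and 11. Pax3, Col1a1 and Col3a1 were lower in both Royalactin libraries. All of these were below the mean of 10 needed for the test.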

How the data were processed

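RNA-seq of J1 mESCs was read from the table the authors deposited, a signal of read counts per gene, aligned to mm9 with Tophat, counted with HTSeq-count and divided by a DESeq size factor for each library. The annotation and strand setting are not given in the sources used here. Every value was a whole multiple of a step per library to within 0.01 of a read, which gave the reads. The other samples of the series were not analysed here. No test on reads was run, and the step of Royalactin replicate 1 was close to 1, at 1.01.

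The test was limma 3.58.1 (R 4.3.3) on log2(normalized count + 1) (trend, two-sided, Benjamini-Hochberg over all genes with a mean of at least 10, no replicate term). Samples were grouped by their labels. The series' text describes at least biological duplicates. The p-values rest on the spread between 2 such libraries, which limma draws for each gene toward that of genes of similar level. Reads carry 95% Poisson intervals and a floor of 3 reads. The limma fit was also run on simulated counts whose planted changes were larger than that of any factor. That run does not show how well changes of the size seen in the factors are detected. Gene models are GENCODE vM1 on mm9, tiles were mapped with minimap2 2.31-r1302, and promoters are from RefSeq.

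The genes named are the 10 factors, the genes of 6 ratios, and of each other list (other epiblast, naive, paralog, epithelial, mESC, neural, neural crest, streak, primitive endoderm and fibroblast genes) those called and the highest and lowest change, plus for Otx2 and Pou3f1 the 3 most similar genes. Other genes are named for their level, as found at or near 0, or as lineage markers whose libraries did not overlap. Twist1, the most abundant fibroblast marker, was named after its values were seen. A further planned ratio and the gene it needs are not reported here and were left out of the lists. The factors and lists were chosen with earlier results of these data known. Alternatives were pseudocounts of 0.1 and 5, other filters and scalings, no trend, a replicate block, each library left out, and, added later, a correction for GC content and length (lowess, span 0.3).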

Additional observations from a re-analysis of the deposited data

How the results depend on the processing

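With pseudocounts of 0.1 and 5, other filters, other scalings and no variance trend, 0 factors were called. At a mean of at least 50, Sox3 did not enter the test. Correcting for exon length and GC content, an alternative added once the data had been seen, called 1, Pou3f1. All genes called, 64 as reported, numbered 32 with the pseudocount 0.1, 34 when every gene above 0 entered, 99 at a mean of at least 50, 247 with the GC and length correction, 0 without the trend (1135 at an unadjusted limma p under 0.05) and 0 to 60 with each library left out, where the lone library is assumed to vary like the other condition. Without serum/–LIF replicate 1 and without Royalactin replicate 2 the number was 0, with 2518 and 547 genes at an unadjusted p under 0.05, and without Royalactin replicate 1 it was 4. The cause was not tested. Factors whose conditions did not overlap, 5 as reported, numbered 7 to 8 with a library left out, where a lone library overlaps less by construction. The share of all genes in those fits was not computed, so 7 to 8 cannot be set beside the 38.6% of the full data. With all 4 libraries the number was 6 with upper-quartile scaling and 4 with scaling to the total without Rn45s. It was also 4 at a mean of at least 50, where Sox3 did not enter. The median log2 fold change of the 10 factors, -0.28, ranged from -0.53 without Royalactin replicate 1 to -0.20. With each library left out, log2 fold changes crossed 0 for Zic2 (-0.33 to 0.0859), Zic5 (-0.85 to 0.41), Sox4 (-0.43 to 0.35) and Grhl2 (-0.0546 to 0.36). Sox4 also crossed with upper-quartile scaling (0.0205) and with scaling to the total without Rn45s (0.0133).

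The replicate numbers are shared between conditions in the labels, and the deviations of same-numbered libraries had a Pearson correlation of 0.0851 across 12993 genes. That value cannot exclude a preparation shared by same-numbered libraries. In serum/–LIF and with Royalactin, Rn45s took 46.6% and 38.4% of the reads in replicate 1. In replicate 2 it took 21.6% and 9.08%. Whether the numbers mark a pairing was not tested. The replicate block called 391 of the 12993 genes tested and 1 factor, Pou3f1 (limma, Benjamini-Hochberg adjusted p = 0.00344). With the GC and length correction as well, which was added later, 786 of the 12993 genes were called. Among them were 3 factors, Pou3f1, Sall2 and Tcf15. Sox3, with 19 to 70 reads a library, is the factor most limited by depth.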

Other observations

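Profiles were compared as log2 values centred on the mean of each gene, so differences in level between genes do not enter. Over the 4 libraries, the genes whose centred profile lay closest to that of Otx2 were Ddx25, Cmpk1 and Tmem206. Their root mean square differences were 0.0129, 0.0170 and 0.0223. The profiles closest to that of Pou3f1 were those of Ptpn9, Arl4c and the integrin gene Itga3, at 0.0491, 0.0510 and 0.0963. Arl4c was at 1232 and 822 normalized counts in serum/–LIF and at 393 and 365 with Royalactin, and Itga3 at 1204 and 773 and at 331 and 315. Itga3 had a log2 fold change of -1.58 and did not pass the adjustment either (limma, Benjamini-Hochberg adjusted p = 0.0787). These are descriptions over 4 libraries and were picked from 12993 genes.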
